A study of Mus musculus with 22 samples.

Results

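The genes examined here encode 43 proteins that write, read or erase methyl groups on the lysines of histone H3, or that build the complexes doing so. They were taken from a list of Polycomb, H3K4, H3K9 and H3K36 factors, and all 43 symbols matched an Ensembl gene in both count tables, of 30332 genes present in either table. RNA was sequenced from 100 sorted tdTomato+ pancreatic endocrine cells per library, from mice lacking the LIM-homeodomain factor *Isl1* in the *Neurod1* lineage (*Isl1CKO*) and from controls. There were 6 control and 5 *Isl1CKO* libraries from E14.5 embryos, and 5 control and 6 *Isl1CKO* libraries from P9 to P10 pups. *Isl1CKO* animals were *Isl1* f/f with *Neurod1*-Cre and the Ai14 tdTomato reporter, and the labels call the controls wild type, whereas the paper describes the sorted controls as *Isl1* f/+ with Cre and reporter and, elsewhere, controls as f/+ or f/f. The control genotype of each library is not given in the labels. All cells were sorted for the Cre-activated reporter, and the lines were kept on a C57BL/6 background with both sexes used. Deletion was limited to cells that had expressed *Neurod1*. Pancreata of pups were digested with collagenase before trypsin and those of embryos with trypsin alone, so age and preparation cannot be told apart.

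Polycomb repressive complex 2 (PRC2) methylates H3K27 through EZH1 or EZH2 held by EED and SUZ12, and accessory proteins steer it to CpG-rich DNA. PRC1 ubiquitinates H2A and reads H3K27me3 through CBX proteins, while COMPASS complexes built on KMT2 and SETD1 enzymes with the WDR5, RBBP5, ASH2L and DPY30 module methylate H3K4, a mark of promoters and enhancers. In islets Polycomb is known for keeping genes of other lineages silent and for holding the *Cdkn2a* locus shut in young beta cells, and menin, encoded by *Men1*, for restraining islet cell growth.

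Between genotypes 2 of the 43 genes passed the test, *Mtf2* and *Dpy30*, both higher in *Isl1CKO* at P9. There 2.66% of all genes tested were higher and 2.14% lower. Between ages 16 passed in control, where 15.8% of all genes were higher and 15.2% lower. In *Isl1CKO* 17 passed between ages, against 16.0% of all genes higher and 13.7% lower. *Cbx7* and *Bmi1* (higher at P9) and *Ash2l* and *Nsd1* (lower) were among them in both genotypes. The sequences upstream of a RefSeq start of both genotype-responsive genes and of a PRC1 pair with opposite age changes are shown first. RefSeq promoter windows on GRCm38.p6 existed for 36 of the 43 genes, and the 250 bases before the start with the most CpG dinucleotides were used. For *Dpy30* and *Cbx7* these windows lie inside the gene span of the GENCODE annotation, upstream of an internal start, and that of *Cbx8* reaches into its first annotated bases. Capitals mark CCAAT boxes (CCAAT, bound by NF-Y) and E2F-type motifs (TTCCCGC or TTGGCGC), sought on both strands.
Mtf2, chr5:108065424-108065673, plus strand: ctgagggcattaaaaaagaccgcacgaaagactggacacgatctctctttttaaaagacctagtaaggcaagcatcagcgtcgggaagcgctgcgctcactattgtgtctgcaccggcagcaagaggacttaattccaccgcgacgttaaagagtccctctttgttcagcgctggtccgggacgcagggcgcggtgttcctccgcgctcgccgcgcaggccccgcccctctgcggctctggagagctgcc
Dpy30, chr17:74316212-74316461, minus strand: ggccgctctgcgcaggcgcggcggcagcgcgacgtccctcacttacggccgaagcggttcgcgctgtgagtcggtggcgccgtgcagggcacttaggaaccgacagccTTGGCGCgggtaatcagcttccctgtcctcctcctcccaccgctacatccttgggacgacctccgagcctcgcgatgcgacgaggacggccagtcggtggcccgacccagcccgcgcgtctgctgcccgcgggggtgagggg
Cbx7, chr15:79932647-79932896, minus strand: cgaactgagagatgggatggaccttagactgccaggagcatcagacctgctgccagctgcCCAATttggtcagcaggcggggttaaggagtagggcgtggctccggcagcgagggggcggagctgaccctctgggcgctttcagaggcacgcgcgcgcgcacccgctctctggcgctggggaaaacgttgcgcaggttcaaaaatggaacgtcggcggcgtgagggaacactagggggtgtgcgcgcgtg
Cbx8, chr11:119040914-119041163, minus strand: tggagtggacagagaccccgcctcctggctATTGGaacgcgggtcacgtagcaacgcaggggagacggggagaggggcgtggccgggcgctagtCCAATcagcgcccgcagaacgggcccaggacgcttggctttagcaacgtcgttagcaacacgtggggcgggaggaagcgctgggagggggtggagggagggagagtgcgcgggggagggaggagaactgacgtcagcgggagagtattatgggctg
All 4 windows are CpG-rich, with 23, 34, 23 and 22 CpG dinucleotides in this order. The median window held 23 over the 36 genes and 6 over 27025 genes. A CCAAT box lay in 33.3% of the windows of these genes and in 33.9% of all windows, and an E2F-type motif in 16.7% (6 of 36, *Dpy30* among them) and 5.97%. Each E2F-type motif itself holds a CpG, and both sets of windows were not matched for CpG content. The part of CpG content in that difference was not tested. The letters CTAATG or CTAATT, a LIM-homeodomain type motif, were in 8.33% of the windows of these genes (3 of 36) and 13.0% of all windows, and in none of the 4 shown. A match is a description of letters, not a binding site.

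Several facts of the libraries bear on these values. Totals ran from 8477482 to 13580985 counts per library. *Isl1* itself read 784 to 1043 normalised CPM (counts relative to library size, scaled over all 22 libraries by trimmed means) in control and 550 to 713 in *Isl1CKO* at E14.5 (log2 fold change -0.48 ± 0.08 SE, edgeR adjusted p = 0.0063), but 359 to 530 in control and 449 to 1241 in *Isl1CKO* at P9 (1.08 ± 0.21, adjusted p = 0.0081), so its counts, which sum exons that the floxed allele may keep, go against the label at P9. The 8 hormone genes took 51.1 to 56.4% of counts in P9 controls and 13.98 to 30.2% in P9 *Isl1CKO*, against 0.71 to 6.17% at E14.5. This makes the choice of scaling matter at P9: with total counts alone the median gene rose by 0.68 on the log2 scale in *Isl1CKO*, and the median of the 43 genes by 0.69. The sorted cells carried the pan-endocrine markers in every library (summed 12619 to 71717 CPM), with macrophage markers at 9.94 to 82.7 CPM, exocrine and duct markers at 57.2 to 470 and mesenchyme and endothelium markers at 4.9 to 89.2. Of the macrophage markers *C1qa* alone read 6.29 to 66.6 CPM, while *Csf1r* read 0 to 7.67. The pan-endocrine sum itself changed with genotype: at P9 *Chgb* read 1258 to 1852 CPM in control and 16577 to 41263 in *Isl1CKO*. Of the 8 pan-endocrine markers 3 were higher and 0 lower there, against 2.66% and 2.14% of all genes, with 4 estimates above and 4 below 0. In bulk RNA, fewer cells of a type and less RNA per cell cannot be told apart.

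Of both genes that passed at P9, *Mtf2* was the one whose genotypes did not overlap and whose effect differed between ages. MTF2, a Polycomb-like protein, brings PRC2 to unmethylated CpG-rich DNA; its gene (ENSMUSG00000029267) lies on the plus strand of chromosome 5 from 108065674 to 108109004. In the 5 P9 controls it read 50.7, 47.4, 51.1, 43.2 and 47.1 CPM, and in the 6 P9 *Isl1CKO* libraries it ran from 57.8 over a median of 82.5 to 90.0 CPM. Every *Isl1CKO* library lay above every control. The log2 fold change was 0.72 ± 0.17 SE (approximate 95% interval 0.38 to 1.05, 1.64-fold), with an edgeR adjusted p of 0.024 over 13964 genes. At E14.5 the order was not seen, with 68.2 to 90.9 CPM (median 79.7) in control and 81.7, 62.1, 73.4, 66.6 and 75.4 CPM in *Isl1CKO* (-0.15 ± 0.10, adjusted p = 0.64). The difference between the effects at both ages was itself 0.87 ± 0.18 (adjusted p = 0.0092), and *Mtf2* was the single gene of the 43 to pass that test. Of all genes 1.23% were higher and 0.851% lower in it, so 1 of 43 is near the share of all genes. Read by age, *Mtf2* fell by 0.74 ± 0.13 on the log2 scale in control (adjusted p = 1.0e-04) without overlap between the ages, and differed by 0.14 ± 0.12 in *Isl1CKO* (adjusted p = 0.45). These comparisons share libraries and are not independent of each other. The P9 call is close to its threshold: without control library 2, 4 or 5 or *Isl1CKO* library 2, 4 or 6 the adjusted p was 0.057, 0.065, 0.059, 0.052, 0.058 and 0.056, at log2 fold changes of 0.67 to 0.79 over all 11 omissions, whereas the difference between ages passed in all 22 omissions. That difference did not pass with replicate number as a block, nor without the library pairs set aside below. With scaling to library totals lacking the hormone genes, the P9 value of *Mtf2* was 0.60 (adjusted p = 0.054). Of its exon bases, 6.93% overlap *Tmed5* on the opposite strand.

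*Dpy30*, whose product dimerises and joins every COMPASS complex through ASH2L, was the other gene to pass at P9. It had the highest level per kilobase of exon of the 43 genes in all 4 groups, 183 ± 15 CPM per kb (SD, n = 5) in P9 controls and 302 ± 73 (n = 6) in P9 *Isl1CKO*. Unscaled for length, the P9 controls read 194, 194, 212, 236 and 212 CPM. The *Isl1CKO* libraries ran from 235 over a median of 360 to 456 CPM, so that the groups touched only at 1 control and 1 *Isl1CKO* library. The log2 fold change was 0.72 ± 0.17 (0.39 to 1.05, adjusted p = 0.022). At E14.5 control read 228 to 261 CPM (median 244) and *Isl1CKO* 263, 264, 276, 256 and 230, a difference of 0.07 ± 0.07 that did not pass (adjusted p = 0.76). The difference between ages, 0.65 ± 0.18, did not pass with edgeR (adjusted p = 0.056) and passed with DESeq2 (0.024). Without control library 1, 2, 3 or 5 or *Isl1CKO* library 4 the adjusted p at P9 was 0.059, 0.064, 0.051, 0.055 and 0.0503.

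**Figure D1:**
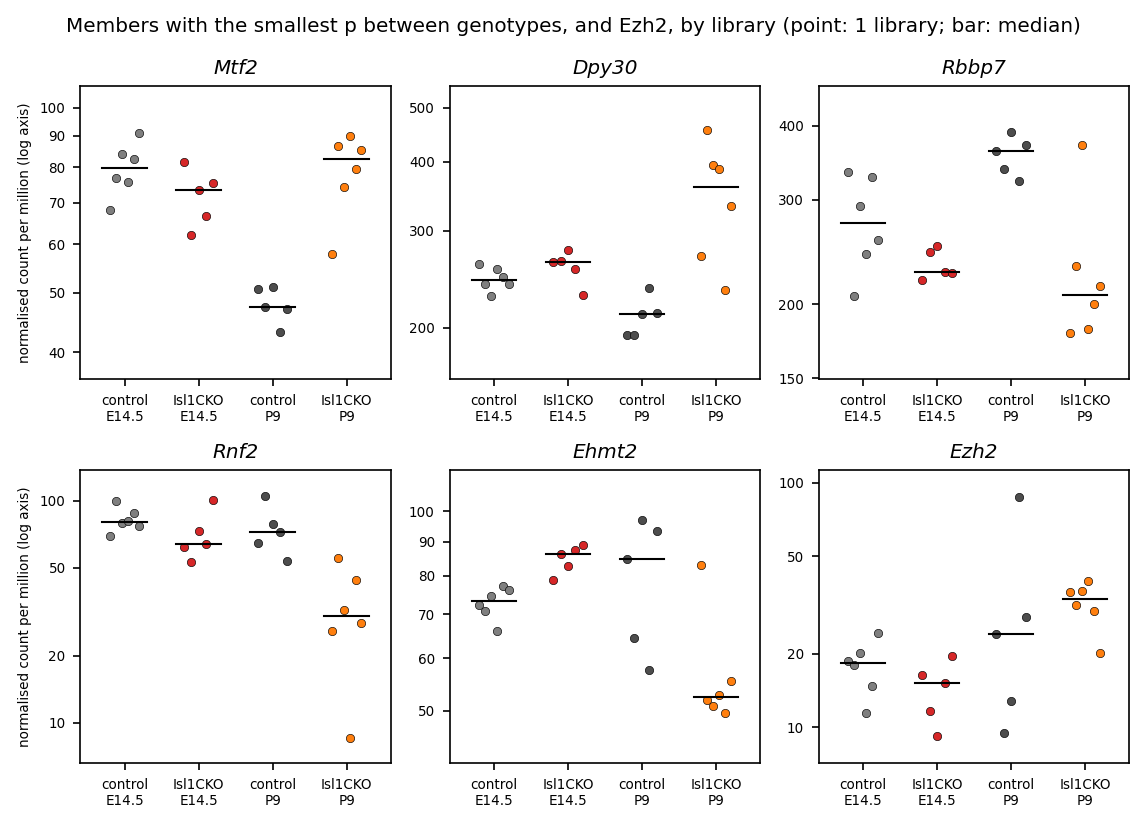
Normalised CPM on a log axis in each library of the 4 groups, for 5 genes with small p-values between genotypes and for *Ezh2*; points are libraries and bars medians. P9 *Isl1CKO* libraries of *Mtf2* (57.8 to 90.0) lie above all P9 controls (43.2 to 51.1), while *Ezh2* shows 1 P9 control at 87.4.

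Counted over the list, 2 of 43 genes were higher and 0 lower in *Isl1CKO* at P9, where 2.66% of all genes tested were higher and 2.14% lower. Only *Mtf2* had groups that did not overlap, against 5.44% of all genes. At an unadjusted p under 0.05 there were 5 of 43 (11.6%), against 17.4% of all genes, and the median log2 fold change was 0.02 for both the list and all genes. At E14.5 Phf19 was below the count filter and 0 of the other 42 genes passed, against 0.602% of all genes higher and 0.827% lower; 5 of 42 (11.9%) had an unadjusted p under 0.05, against 11.4% of all genes, and DESeq2 passed 1, *Ehmt2*. The median was -0.04. For the difference between the ages 1 of 43 was higher and 0 lower, against 1.23% and 0.851% of all genes. These shares are near those of all genes. The direction of calls over all genes moved with scaling: at P9 55.4% of calls were higher, against 96.2% with total counts and 38.4% with totals lacking the hormone genes, and for the difference between ages 59.1%, 97.2% and 41.2%. A gene that did not pass is not thereby shown to be equal: the approximate 95% interval for *Ezh2* at P9, for example, ran from -0.92 to 0.89.

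**Figure D2:**
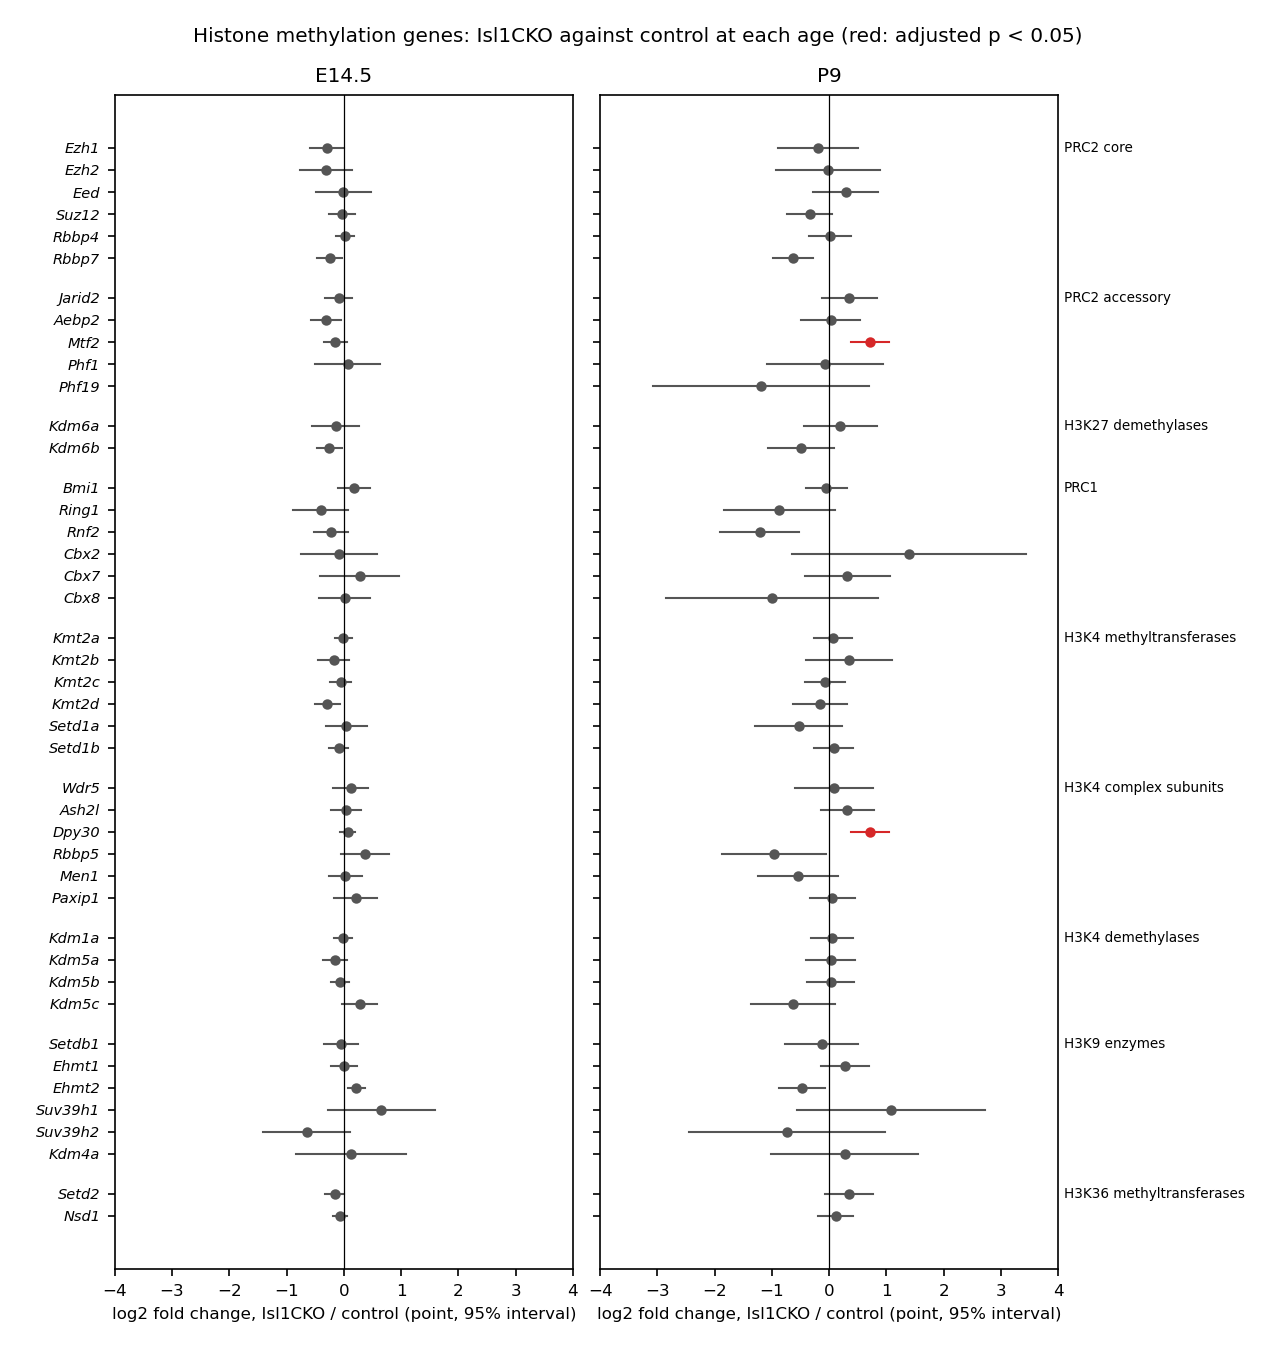
Log2 fold change of *Isl1CKO* over control with its approximate 95% interval for each gene at E14.5 (left) and P9 (right), ordered by role. Red marks an adjusted p under 0.05. *Mtf2* and *Dpy30* at P9 (both 0.72) are the 2 red points, and the intervals at P9 are wide for genes of low counts such as *Cbx2*, *Cbx8* and *Phf19*.

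Within the PRC2 core, 0 of 6 genes passed between genotypes at either age. Of all genes 0.602% were higher and 0.827% lower at E14.5, and 2.66% and 2.14% at P9. With such shares a count of 0 in a role of a few genes, here and below, does not set that role apart. *Rbbp7*, an X-linked histone chaperone shared by PRC2 and NuRD, came nearest at P9. Controls read 362, 338, 391, 323 and 371 CPM, and *Isl1CKO* libraries ran from 178 over 207 to 372 CPM, with 5 of 6 below every control and library 3 among the controls. The log2 fold change was -0.64 ± 0.18 (adjusted p = 0.054 with edgeR, 0.022 with DESeq2). With totals lacking the hormone genes it was -0.76 and passed (adjusted p = 0.016), and with total counts it was 0.00. *Rbbp4*, its autosomal paralog, differed by 0.01 ± 0.19 at P9. At E14.5 5 of 6 estimates of the core were below 0, from -0.31 to 0.02, with *Rbbp7* at -0.24 ± 0.11 (adjusted p = 0.43). This lean was not particular to the core: 25 of the 42 genes tested were below 0 and 17 above, as were 5 and 1 of the 6 H3K4 methyltransferases. Of all genes 49.4% were above 0.

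The paralogs *Ezh1* and *Ezh2* encode alternative catalytic subunits, EZH2 being typical of dividing cells. Per kilobase, *Ezh1* stood at 4.26 ± 0.76 CPM (SD, n = 6) and *Ezh2* at 2.68 ± 0.66 in E14.5 controls, and at 3.13 ± 1.40 and 4.85 ± 4.75 (n = 5) in P9 controls. The wide spread of the last came from 1 library: *Ezh2* read 24.0, 9.5, 12.8, 87.4 and 28.3 CPM in P9 controls. Control library 4 was also the highest of the controls in the summed proliferation markers (1431 CPM, against 595 to 930 in the others). A link between both was not tested. *Isl1CKO* libraries at P9 ran from 20.1 over 33.6 to 39.5 CPM for *Ezh2*. Their proliferation markers summed to 598 CPM in library 6 (lowest *Ezh2*) and 813 in library 4 (highest *Ezh2*). Library 2 had the highest sum, 1529 CPM, with *Ezh2* at 31.6. *Ezh2* did not pass between genotypes at P9 (-0.02 ± 0.46, adjusted p = 0.99), nor did *Ezh1* (-0.19 ± 0.36, adjusted p = 0.86). In E14.5 libraries *Ezh2* read 11.4 to 24.3 CPM in control (median 18.3) and 16.4, 11.7, 9.19, 15.2 and 19.5 in *Isl1CKO*, and *Ezh1* 26.9 to 42.9 (median 30.1) and 24.4, 21.5, 25.2, 26.3 and 31.7. Their differences were -0.31 ± 0.23 and -0.29 ± 0.15, neither passing (adjusted p = 0.68 and 0.48). With age *Ezh2* rose in *Isl1CKO* (1.16 ± 0.40, adjusted p = 0.030) with all P9 libraries above all E14.5 libraries; in control the estimate was 0.86 ± 0.39 (adjusted p = 0.097). Without *Isl1CKO* library 2, 3 or 4 of E14.5 or library 4 of P9 the rise in *Isl1CKO* did not pass (adjusted p up to 0.081).

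Besides *Mtf2*, none of the other PRC2 accessory genes passed between genotypes, where in either direction at most 2.66% of all genes did. *Phf19*, which encodes a further Polycomb-like protein, was barely counted: 22 counts in all over the 6 E14.5 controls (0.063 to 0.35 CPM, median 0.25) and 1.71, 0.13, 0.18, 2.28 and 1.03 CPM in E14.5 *Isl1CKO*. At P9 it read 6.43, 0.60, 14.46, 2.85 and 3.94 CPM in control, while 5 of 6 *Isl1CKO* libraries lay between 0.30 and 1.12 and library 1 at 11.1. Both P9 groups overlapped (-1.19 ± 0.96, adjusted p = 0.60). Its fold between ages in control, 4.56 ± 0.99 on the log2 scale (adjusted p = 0.0011), starts from these few counts, and the gene entered that test only through the groups where it is higher. *Jarid2* and *Aebp2*, subunits of the other PRC2 form, differed by 0.35 ± 0.25 and 0.03 ± 0.26 at P9. Of *Phf1*, 39.3% of the exon bases overlap other genes on the opposite strand, and the library kit does not keep strand, so its level is uncertain.

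In PRC1, *Rnf2* had the lowest estimate of the 43 genes at P9. RNF2 (RING1B) is the ligase that ubiquitinates H2A. Controls read 64.8, 106, 78.5, 72.1 and 53.8 CPM, and *Isl1CKO* ran from 8.55 over 30.3 to 55.1, with 5 of 6 libraries below all controls. The log2 fold change of -1.22 ± 0.35 did not pass with edgeR (adjusted p = 0.061) and passed with DESeq2 (0.023). With totals lacking the hormone genes *Rnf2* was at -1.33 and passed (0.039), and with total counts at -0.56 (0.24). At E14.5 control ran from 69.6 over 80.0 to 99.5 CPM, and *Isl1CKO* read 61.8, 53.2, 73.1, 63.7 and 101 (-0.22 ± 0.15, adjusted p = 0.63). With age *Rnf2* fell by 1.12 ± 0.28 in *Isl1CKO* (adjusted p = 0.0040) and differed by -0.14 ± 0.28 in control (0.76), and the difference of both, -0.99 ± 0.40, did not pass (adjusted p = 0.22). Its paralog *Ring1* was at -0.87 ± 0.49 at P9 (adjusted p = 0.41).

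None of the 6 PRC1 genes passed between genotypes, where in either direction at most 2.66% of all genes did. Between ages 3 passed in control (2 higher, 1 lower) and 4 in *Isl1CKO* (2 higher, 2 lower), where 15.8% and 15.2% of all genes were higher and lower in control and 16.0% and 13.7% in *Isl1CKO*. *Cbx7*, the main H3K27me3 reader of canonical PRC1 in many differentiated cells, ran from 1.55 over 4.24 to 5.52 CPM in E14.5 controls and read 3.87, 8.14, 4.68, 4.50 and 4.12 in E14.5 *Isl1CKO*. At P9 it read 8.38, 21.9, 27.4, 11.5 and 13.6 CPM in control and 9.67 to 28.5 (median 22.0) in *Isl1CKO*. No P9 library overlapped the E14.5 libraries of its genotype. The rise was 1.99 ± 0.37 in control (3.98-fold, adjusted p = 2.1e-04) and 2.03 ± 0.38 in *Isl1CKO* (2.7e-04). *Bmi1*, the PCGF subunit of canonical PRC1, rose by 1.36 ± 0.17 and 1.14 ± 0.17 (adjusted p = 1.7e-06 and 2.3e-05), from 33.5 to 53.3 CPM in E14.5 controls to 132, 101, 74.0, 92.5 and 123 in P9 controls. In *Isl1CKO* it went from 53.0, 38.0, 48.4, 51.8 and 38.5 CPM to 72.3 to 115 (median 108). With total counts as scaling neither rise passed in control (*Cbx7* 0.81, adjusted p = 0.071; *Bmi1* 0.18, 0.36), and both passed in *Isl1CKO*.

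*Cbx2* and *Cbx8*, alternative readers, had estimates of the opposite sign. They are neighbours on chromosome 11 of GRCm38, *Cbx2* on the plus strand from 119022962 to 119031270 and *Cbx8* on the minus strand from 119036305 to 119040969. *Cbx2* read 4.11 to 14.6 CPM in E14.5 controls (median 7.67) and 4.33, 1.21, 0.41, 0 and 2.36 in P9 controls. It fell by 2.31 ± 0.81 there (adjusted p = 0.033), a call lost without control library 3 of E14.5 or 2, 3 or 4 of P9 (adjusted p up to 0.076). In *Isl1CKO* it read 4.66, 12.8, 6.38, 6.34 and 9.10 CPM at E14.5 and 0.11 to 12.4 (median 3.93) at P9, with overlap (-0.83 ± 0.74, adjusted p = 0.43). *Cbx8* fell in *Isl1CKO* by 2.41 ± 0.68 (adjusted p = 0.0087), from 12.2, 18.2, 15.2, 13.1 and 7.86 CPM to between 0 and 6.29 (median 1.73). In control it went from 9.45 to 16.9 CPM (median 13.2) to 9.78, 7.99, 0.55, 5.06 and 1.31, a difference of -1.42 ± 0.68 that did not pass (0.12). The difference in age effect between genotypes did not pass for either gene ( 1.47 ± 1.08 and -0.995 ± 0.93, adjusted p = 0.58 and 0.68).

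**Figure D3:**
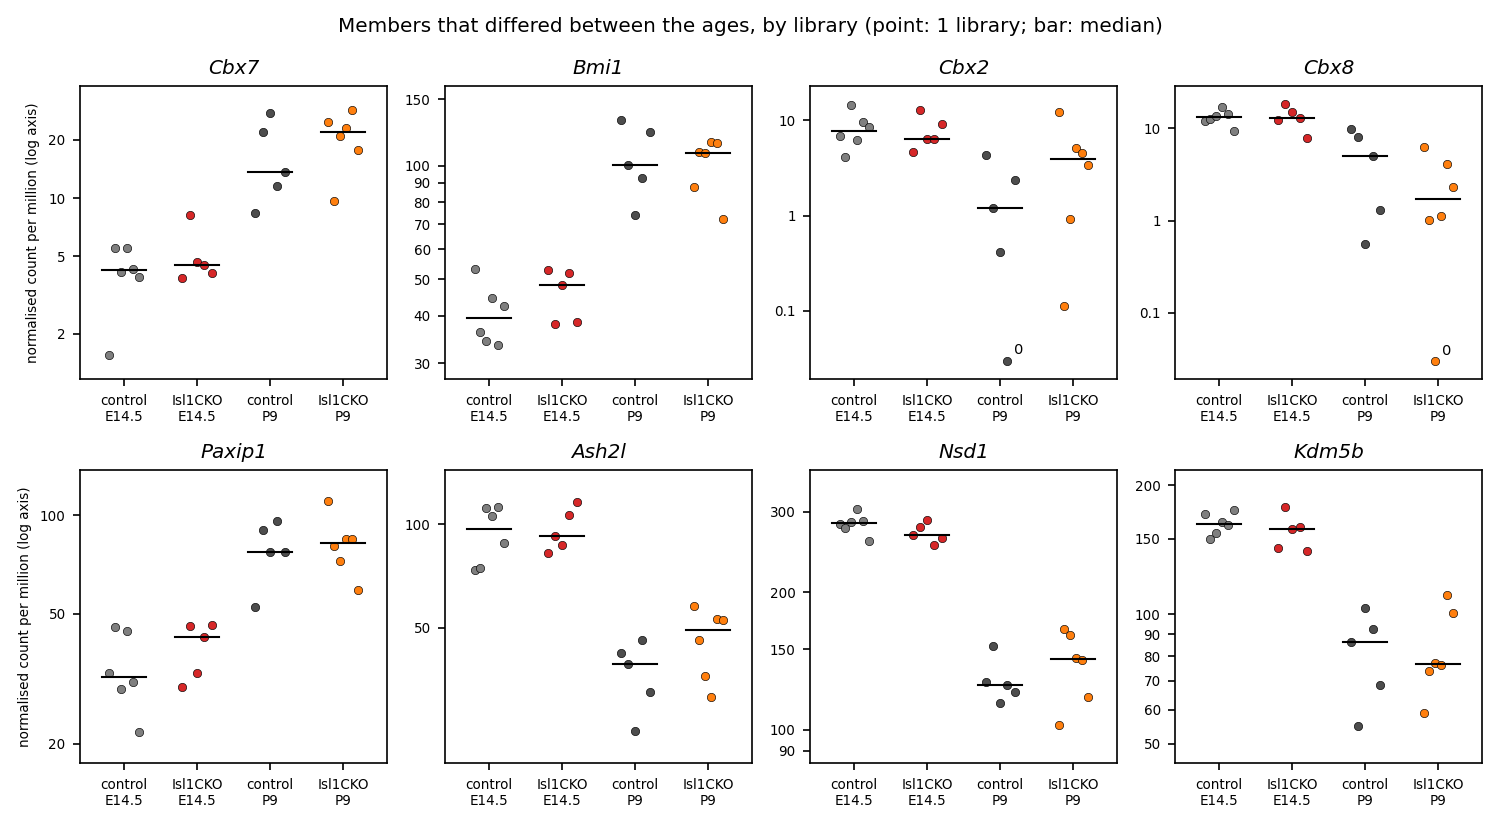
Normalised CPM on a log axis in each library for 8 genes that differed between ages in at least 1 genotype; points are libraries, bars medians, and a library without counts is drawn at the foot of the axis and marked 0. *Cbx7*, *Bmi1* and *Paxip1* are higher and *Cbx2*, *Cbx8*, *Ash2l*, *Nsd1* and *Kdm5b* lower at P9; with total counts as scaling the estimates kept these directions, but *Paxip1* in control was at 0.01.

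Of the H3K27 demethylase pair, neither passed in any of the 5 comparisons. *Kdm6a* (UTX), which escapes X inactivation in females, ran from 45.1 over 69.3 to 95.9 CPM in E14.5 controls and read 54.6, 65.1, 67.5, 81.1 and 37.4 in E14.5 *Isl1CKO*. At P9 it read 60.6, 71.0, 66.0, 52.6 and 60.5 in control and 20.7 to 129 (median 67.7) in *Isl1CKO*. The differences were -0.14 ± 0.21 and 0.20 ± 0.32 (adjusted p = 0.87 and 0.84). Its values were set beside *Xist*, the X inactivation RNA: 10 libraries held 105 to 378 CPM of *Xist* and *Kdm6a* at 52.6 to 129 (median 73.5), and 12 held at most 2.1 CPM of *Xist* and *Kdm6a* at 20.7 to 71.2 (median 58.4). Within P9 controls no such order was seen, with *Kdm6a* at 52.6 to 71.0 in the 3 libraries with *Xist* and 60.5 to 60.6 in the other 2, while in the other 3 groups the medians were higher with *Xist*. The Y-linked paralog *Uty* divided the libraries the other way, at 35.2 to 92.6 CPM in these 12 and at most 0.55 in the 10. The 10 libraries with *Xist* were 2 of 6 controls and 3 of 5 *Isl1CKO* at E14.5, and 3 of 5 controls and 2 of 6 *Isl1CKO* at P9. The mix of sexes thus differed between genotypes, in opposite directions at the 2 ages. With the *Xist* level as a term in the model the genotype effects on *Kdm6a* were -0.32 and 0.19 (adjusted p = 0.47 and 0.83). *Kdm6b* (JMJD3), autosomal and signal-induced, read 67.7 to 77.8 CPM in E14.5 controls (median 75.0) and 52.1, 71.4, 75.7, 58.4 and 54.3 in *Isl1CKO* (-0.25 ± 0.11, adjusted p = 0.38). At P9 it read 89.5, 65.0, 68.7, 80.3 and 76.5 in control and 24.8 to 100.4 (median 53.3) in *Isl1CKO* (-0.49 ± 0.29, adjusted p = 0.43).

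*Kdm5c*, the other X-linked demethylase, removes H3K4 methylation and also escapes X inactivation. Over all groups it read 21.3 to 69.2 CPM (median 46.7) in the 10 libraries with *Xist* and 10.8 to 47.9 (median 30.9) in the other 12, where its Y-linked paralog *Kdm5d* read 3.15 to 57.1 and elsewhere at most 0.37. These ranges pool groups of different level, and within P9 controls the medians were 27 with *Xist* and 26.2 without, with overlap. By group, *Kdm5c* ran from 27.5 over 42.4 to 50.6 CPM in E14.5 controls, and E14.5 *Isl1CKO* read 47.9, 61.1, 50.2, 54.5 and 37.7. P9 controls read 18.0, 69.2, 26.99, 21.3 and 34.4 and P9 *Isl1CKO* 10.8 to 28.9 (median 23.6). Neither genotype effect passed (0.28 ± 0.16 and -0.64 ± 0.37, adjusted p = 0.55 and 0.43). *Kdm5c* fell with age in *Isl1CKO* by 1.198 ± 0.29 (adjusted p = 0.0030, and 0.0055 with *Xist* in the model), without overlap, and differed by -0.29 ± 0.29 in control (0.49).

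**Figure D4:**
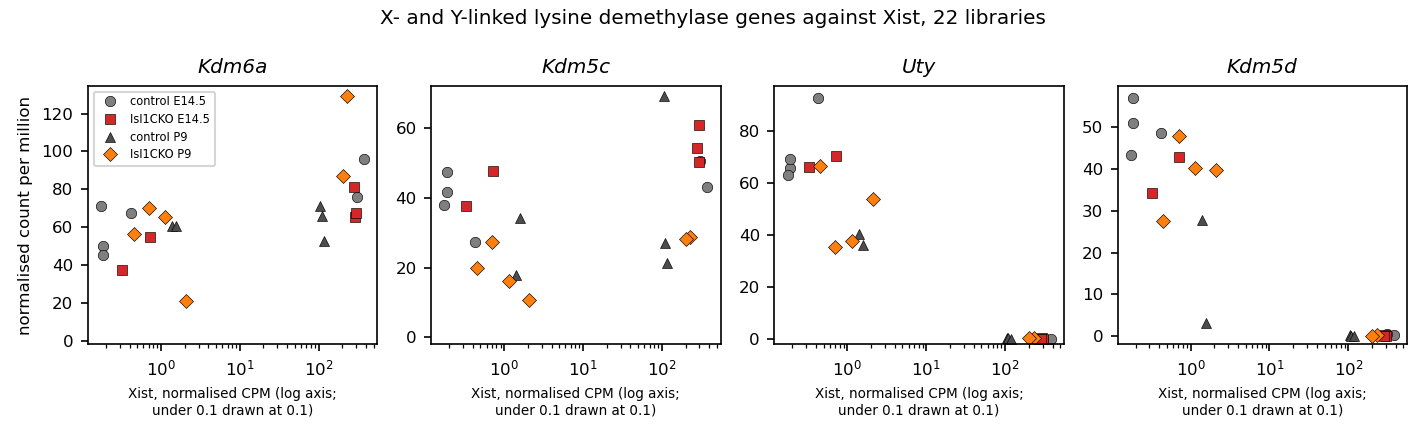
Normalised CPM of *Kdm6a*, *Kdm5c*, *Uty* and *Kdm5d* against *Xist* (log axis) in the 22 libraries, with a symbol for each group. The 10 libraries with at least 105 CPM of *Xist* hold at most 0.55 CPM of *Uty*, and the highest *Kdm6a* value, 129, is among them.

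Among the 6 H3K4 methyltransferases none passed between genotypes, where in either direction at most 2.66% of all genes did. Their estimates ran from -0.29 to 0.04 at E14.5 and from -0.53 to 0.35 at P9. *Kmt2d*, which writes H3K4me1 at enhancers, had the smallest p of the 6 at E14.5. It ran from 99.8 over 108 to 144 CPM in control and read 84.6, 102, 110, 88.2 and 80.7 in *Isl1CKO*, a difference of -0.29 ± 0.11 (adjusted p = 0.33). At P9 the controls read 133, 78.0, 67.9, 103 and 92.7 CPM and *Isl1CKO* 51.8 to 135 (median 83.5), again overlapping (-0.16 ± 0.24, adjusted p = 0.81). *Setd1b* rose with age in *Isl1CKO* (0.45 ± 0.13, adjusted p = 0.011), and *Setd1a* in control (0.84 ± 0.29, 0.031) under trimmed-mean scaling, while with total counts the estimates were -0.10 and -0.31. The *Setd1a* call was lost without control library 2 or 4 of E14.5 or 1 or 3 of P9 (adjusted p up to 0.10), and 52.3% of its exon bases overlap other annotated genes.

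Subunits of the H3K4 complexes showed both directions. *Ash2l*, partner of *Dpy30* in the core module, fell with age by 1.35 ± 0.19 in control and 1.06 ± 0.18 in *Isl1CKO* (adjusted p = 6.9e-06 and 8.7e-05). It ran from 73.6 over 97.0 to 113 CPM in E14.5 controls and read 82.8, 92.3, 86.8, 106 and 116 in E14.5 *Isl1CKO*, against 42.3, 39.2, 25.1, 46.0 and 32.5 in P9 controls and 31.6 to 57.8 (median 49.4) in P9 *Isl1CKO*, with no overlap of ages. *Paxip1* (PTIP), of the KMT2C and KMT2D complexes, rose by 1.201 ± 0.20 and 1.05 ± 0.20 (6.3e-05 and 3.4e-04), but with total counts was at 0.01 in control (0.96) and 0.499 in *Isl1CKO* (0.0502). *Dpy30* did not pass with age in control (-0.23 ± 0.13, adjusted p = 0.18) and rose with age in *Isl1CKO* (0.42 ± 0.13, 0.014), where the estimate with total counts was -0.14.

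*Rbbp5*, a further core subunit, spread widely at P9: 6.71, 36.2, 34.2, 35.6 and 52.7 CPM in control and 4.50 to 23.1 (median 18.7) in *Isl1CKO*, so that 4 of 5 controls lay above all *Isl1CKO* libraries. The difference of -0.96 ± 0.46 did not pass (adjusted p = 0.30). At E14.5 it ran from 11.6 over 23.4 to 29.1 CPM in control and read 26.7, 24.8, 20.4, 36.8 and 35.1 in *Isl1CKO* (0.37 ± 0.22, adjusted p = 0.56), and the difference between ages was -1.33 ± 0.53 (0.22). *Men1* fell with age in *Isl1CKO* (-0.88 ± 0.27, adjusted p = 0.016) and did not pass in control (-0.30 ± 0.27, 0.42). Its genotype difference at P9 was -0.55 ± 0.36 (0.48). *Wdr5* passed in none of the 5 comparisons.

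None of the 4 H3K4 demethylases passed between genotypes at either age, where in either direction at most 2.66% of all genes did. *Kdm5a* and *Kdm5b* fell with age in both genotypes, *Kdm5b* by 1.00 ± 0.16 and 0.91 ± 0.15 (adjusted p = 3.3e-05 and 8.7e-05), from 150 to 175 CPM in E14.5 controls to 54.9 to 103 in P9 controls. *Kdm5a* fell by 0.75 ± 0.18 and 0.57 ± 0.18 (0.0025 and 0.016). *Kdm1a* (LSD1), the FAD-dependent H3K4 demethylase, was higher at P9 by 0.40 ± 0.14 and 0.46 ± 0.14 (0.036 and 0.018), but at -0.77 and -0.07 with total counts. The *Kdm1a* call did not survive the loss of control library 2, 4 or 5 of E14.5 or 1, 3 or 5 of P9 in control (adjusted p up to 0.12), nor of library 6 of P9 in *Isl1CKO* (0.056).

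Of the H3K9 enzymes, *Ehmt2* (G9a), which writes H3K9me1 and H3K9me2, was the single gene of the 42 whose groups did not overlap at E14.5, against 2.43% of all genes. Control ran from 65.9 over 73.3 to 77.3 CPM and *Isl1CKO* read 78.8, 86.4, 82.7, 87.3 and 89.0. The difference was small, 0.22 ± 0.08 (adjusted p = 0.25 with edgeR and 0.038 with DESeq2). At P9 the estimate was negative: controls read 84.7, 64.4, 97.1, 57.5 and 93.5 CPM, and 5 of 6 *Isl1CKO* libraries lay between 49.6 and 55.5, below all controls, with library 1 at 83.0 (-0.48 ± 0.20, adjusted p = 0.23). The difference between the ages, -0.69 ± 0.21, did not pass with edgeR (adjusted p = 0.081) and passed with DESeq2 (0.020). With age *Ehmt2* fell in *Isl1CKO* (-0.57 ± 0.15, adjusted p = 0.0051) and its partner *Ehmt1* in control (-0.65 ± 0.16, 0.0043). *Suv39h1*, *Suv39h2* and *Kdm4a* had few counts (medians of 1.45 to 11.5 CPM over the groups) and standard errors of 0.84, 0.87 and 0.66 on the log2 scale at P9.

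The H3K36 methyltransferase *Nsd1*, which writes H3K36me2, had the smallest p of the 43 genes with age. It ran from 259 over 284 to 304 CPM in E14.5 controls and read 267, 277, 287, 253 and 262 in E14.5 *Isl1CKO*. P9 controls read 127, 153, 114, 125 and 121 and P9 *Isl1CKO* 103 to 166 (median 143), so every P9 library lay below every E14.5 library. *Nsd1* fell by 1.14 ± 0.11 in control and 0.95 ± 0.11 in *Isl1CKO* (adjusted p = 6.6e-08 and 6.8e-07). *Setd2*, the H3K36me3 enzyme, fell in control by 0.50 ± 0.17 (0.025), a call lost without control library 1 of E14.5 or 3 or 4 of P9 (adjusted p up to 0.079), and was at 0.00 ± 0.17 in *Isl1CKO*. Between genotypes neither passed at either age.

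Over the list, 7 genes were higher and 9 lower at P9 than at E14.5 in control, against 15.8% and 15.2% of 17265 genes tested, and 12 had ages that did not overlap, against 20.9%. In *Isl1CKO* 7 were higher and 10 lower, against 16.0% and 13.7%, and 11 did not overlap, against 19.3%. Of these, 4 of 7 and 4 of 7 higher genes were shared (*Bmi1*, *Cbx7*, *Kdm1a*, *Paxip1*), and 5 of 9 and 5 of 10 lower genes (*Ash2l*, *Kdm5a*, *Kdm5b*, *Nsd1*, *Rbbp4*). Sharing over all genes was not counted, so these numbers have no background here. Passing in 1 genotype is no test of a difference, which passed for *Mtf2* alone, against 1.23% of all genes higher and 0.851% lower. *Suz12*, higher with age in control (0.57 ± 0.17, adjusted p = 0.011), was at -0.61 with total counts, a scaling under which the median gene fell by 1.21 in control and by 0.50 in *Isl1CKO*, and the median of the 43 genes by 1.14 and 0.45. The share of higher calls among all genes was then 5.69% in control, against 50.9%, and 18.1% in *Isl1CKO*, against 53.8% (38.3% with totals lacking the hormone genes). Proliferation markers moved with age as well: the summed level of 18 markers was 84.1 to 201 CPM in E14.5 controls, 103 to 246 in E14.5 *Isl1CKO*, 595 to 1431 in P9 controls and 441 to 1529 in P9 *Isl1CKO*, with 15 and 16 of 18 higher at P9. Between genotypes 1 of 17 tested, *Mcm6*, was higher at E14.5 and 0 of 18 passed at P9. Their part in the age differences was not tested.

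**Figure D5:**
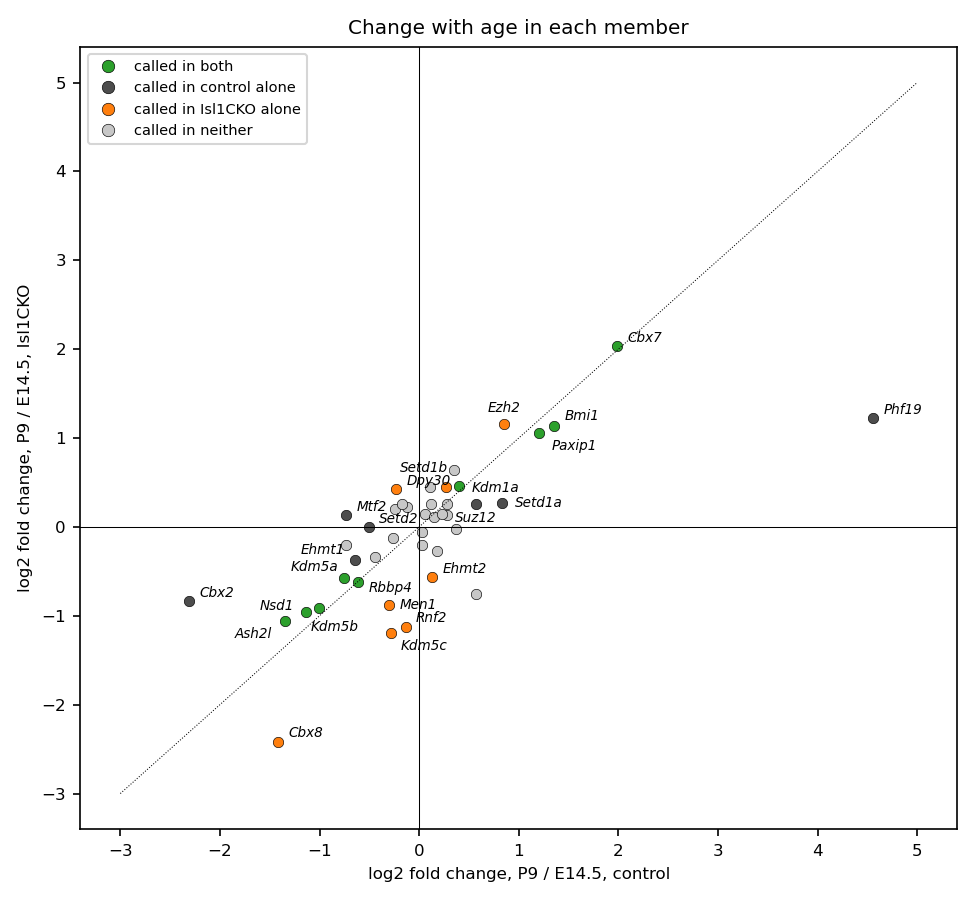
Log2 fold change of P9 over E14.5 in control (x) and *Isl1CKO* (y) for the 43 genes, coloured by whether the adjusted p was under 0.05 in both genotypes, one or neither; the dotted line marks equality. *Cbx7* (1.99 and 2.03) lies near the line and *Mtf2* (-0.74 and 0.14) off it; with total counts *Kdm1a*, *Setd1a* and *Suz12* in control and *Kdm1a*, *Setd1b* and *Dpy30* in *Isl1CKO* change sign.

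Beyond the 43, 72 further genes of histone lysine methylation and its readers were counted. Between genotypes 0 of 70 tested passed at E14.5 (median -0.05), against 0.602% of all genes higher and 0.827% lower. At P9 0 of 69 passed (median -0.03), against 2.66% and 2.14%. For the difference between ages 0 of 71 passed, against 1.23% and 0.851%. With such shares over all genes, counts of 0 do not show these genes to be unchanged. With age 15 were higher and 11 lower of 71 in control, where 15.8% and 15.2% of all genes were, and 16 and 9 in *Isl1CKO*, where 16.0% and 13.7% were. *Cdkn2b*, a Polycomb target at the Ink4 locus, did not pass in any comparison. *Cdkn2a* was not tested. It was missing from the E14.5 counts and had no count in any P9 control. In P9 *Isl1CKO* it read 2.41, 3.49, 0.11, 0, 0 and 0 CPM.

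Some libraries with many markers of other cells were set aside in a check chosen after seeing the data, while others with high sums were kept, such as P9 control library 1 (macrophage 68.7 CPM), E14.5 control library 5 (exocrine 374) and P9 *Isl1CKO* library 2 (proliferation 1529). In P9 control library 1 *C1qa* alone gave 66.6 CPM of the macrophage sum, with *C1qc* at 0.28 and *Csf1r* at 0.56. Without P9 control libraries 3 and 4 (exocrine 470 and 63.6 CPM, mesenchyme 78.2 and 89.2, and the *Ezh2* outlier in library 4) 0 of 43 genes passed at P9: *Mtf2* was at 0.70 (adjusted p = 0.13) and *Dpy30* at 0.78 (0.091), with all genes passing down from 671 to 339. Without E14.5 *Isl1CKO* libraries 3 and 4, which had the highest macrophage markers at that age (58.5 and 82.7 CPM), the count at E14.5 stayed at 0. With both pairs set aside 5 genes were higher and 6 lower with age in control and 5 and 8 in *Isl1CKO*, and the *Mtf2* difference between ages was 0.83 (adjusted p = 0.097).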

How the data were processed

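Libraries of 100 sorted cells were made with a low-input kit that does not keep strand. Per the methods and the submitters' processing notes, the authors trimmed reads with cutadapt 1.18 and Trimmomatic, removed ribosomal reads with Bowtie 1.2.2 and SortMeRNA, aligned with STAR 2.7.0c to GRCm38.p6 and counted uniquely mapped reads per gene with Rsubread. The deposited values are raw counts per gene, 1 table for each age, without genes under 10 counts in total. No pair of libraries was identical (0 pairs). Groups were taken from the titles. The libraries are called biological replicates. Whether a library pools animals is not given in the sources used here, so p-values rest on the spread between libraries.

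Symbols, positions and exon lengths came from GENCODE M21 (27078 of 27124 and 27456 of 27504 IDs matched), and promoter sequences from RefSeq on GRCm38.p6. The edgeR package (4.0.16, under R 4.3.3) was applied to the counts (trimmed-mean scaling, filterByExpr, quasi-likelihood test), each age alone for genotype and all 22 libraries together for age and the difference of effects. P-values were adjusted by the Benjamini-Hochberg method over all genes tested, and 0.05 was the threshold. Intervals are the estimate ± 1.96 SE, with the SE derived from the estimate and the test statistic. They are approximate and narrower than the test allows, so an interval can leave out 0 where p is above 0.05. *Ezh1* at E14.5 is an example, with an interval from -0.58 to -0.002 at an unadjusted edgeR p of 0.068. Totals of 8477482 to 13580985 counts limit the precision of genes of few counts. The code was tested on simulated data.

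Alternatives were DESeq2 1.42.0, other scalings, no filter, a replicate block, the *Xist* level as a term and leaving out each library. The removal of library pairs was added after seeing the data. The genes, lists and tests were chosen with earlier results of these data known. Per-library values were given for genes passing between genotypes or of smallest p up to 8, for the *Ezh1* and *Ezh2*, *Kdm6a* and *Kdm6b* pairs and *Kdm5c*, and for the 3 largest age effects in each direction in control. Other genes passing between ages were named after their values were seen.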

Additional observations from a re-analysis of the deposited data

Results flagged for a closer look

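Over the 43 genes and 4 groups, 172 sets of libraries were examined for a single value far from the rest by Dixon's criterion, and 10 (5.81%) held one, where chance gives about 1 in 20. At E14.5 these were *Ezh1* in control library 4 (42.9 CPM) and *Cbx7* in *Isl1CKO* library 2 (8.14 CPM). In P9 controls library 4 was high for *Ezh2* (87.4 CPM) and *Ring1* (22.0 CPM), and library 5 for *Kdm4a* (8.26 CPM). In P9 *Isl1CKO*, library 1 was high for *Phf19* (11.1 CPM) and *Ehmt2* (83.0 CPM), library 3 for *Rbbp7* (372 CPM), library 4 for *Suv39h2* (12.7 CPM) and library 5 for *Kdm5a* (241 CPM). All 10 values were the highest of their group.

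The genotype effect on *Mtf2* differed between the ages by 0.87 on the log2 scale in the model of all 22 libraries (edgeR adjusted p = 0.0092).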

How the results depend on the processing

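With DESeq2, 1 of the genes was higher at E14.5 (653 of all genes passed, against 228), 2 were lower at P9 (1677 against 671), and 2 were higher and 1 lower for the difference between ages (924 against 359). With total counts as scaling, 16 were higher at P9 (all genes 3962, median of the 43 genes 0.69), 12 for the difference (3175, median 0.70), 1 higher and 32 lower with age in control (10635, median -1.14), and 2 higher and 19 lower with age in *Isl1CKO* (median -0.45). That scaling reversed *Kdm1a* (-0.77), *Setd1a* (-0.31) and *Suz12* (-0.61) with age in control, and *Kdm1a* (-0.072), *Setd1b* (-0.099) and *Dpy30* (-0.14) in *Isl1CKO*. With totals lacking the hormone genes, 1 was higher and 2 lower at P9, 1 lower for the difference, and 3 higher with age in *Isl1CKO* (median -0.099). Without the filter 4 were higher with age in control and 3 in *Isl1CKO*. The causes were not tested.

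Without E14.5 *Isl1CKO* libraries 3 and 4, 105 of all genes passed at E14.5. Without P9 control libraries 3 and 4, 0 of the 43 were higher at P9 (all genes 339), and without both pairs 0 for the difference (109); fewer libraries entered these fits. Leaving out 1 library at a time gave 114 to 229 of all genes at E14.5, 0 to 2 of the 43 higher and 0 to 1 lower at P9, and 1 to 2 higher and 0 to 2 lower for the difference (all genes 219 to 484). With age, 5 to 8 were higher and 7 to 11 lower in control.

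Replicate numbers did not pair the libraries: same-numbered libraries correlated at -0.049 to 0.057 at E14.5 and -0.023 to 0.049 at P9, and 1 of 5 and 2 of 5 controls were closest to their own number. With the replicate block, 134 of all genes passed at E14.5, 333 at P9 (0 of the 43 higher; *Mtf2* 0.68, adjusted p = 0.14; *Dpy30* 0.69, 0.079) and 173 for the difference (0 of the 43 higher; *Mtf2* 0.80, 0.060), and the median with age in *Isl1CKO* was -0.069.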
